A study of Homo sapiens with 24 samples.

Results

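The genes described here are the zinc finger genes whose names are ZNF followed by a number, with at most 1 letter after it. They were selected on their level: a gene was a member when its mean CPM (the raw count scaled to the sample's total of gene counts) was 10 or more over all 24 samples. Of 556 such names in the tables, 181 were members, among 8888 genes of any name that reached this level and 58138 gene names in all. The 375 names below the level include 66 with no count in any sample. Just inside the threshold were ZNF829 at a mean of 10.2 CPM, ZNF646 at 10.3 and ZNF608 at 10.3, and just outside it were ZNF432 at 9.83, ZNF248 at 9.65 and ZNF516 at 9.57. Because the level chose them, their levels below are a description.

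Most ZNF genes encode proteins with a row of C2H2 fingers, short loops in which 2 cysteines and 2 histidines hold a zinc ion and whose helix reads a few bases of DNA. Many also carry a KRAB box, which recruits the co-repressor TRIM28 (KAP1) and, through it, the histone methyltransferase SETDB1, and such proteins are known for silencing transposable elements. The family grew by tandem duplication, and large clusters of its genes lie on chromosome 19.

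The question of the series is what RPRD proteins, which bind the C-terminal domain of RNA polymerase II, do to steady-state RNA levels. HEK293T cells, a human embryonic kidney line, received siRNAs for 48 h in 8 groups, labelled CTRL for the control, RPRD1A_KD, RPRD1B_KD and RPRD2_KD for single genes, RPRD1A_RPRD1A_KD, RPRD1A_RPRD2_KD and RPRD1B_RPRD2_KD for pairs, and RPRD1A_RPRD1B_RPRD2_KD. The label RPRD1A_RPRD1A_KD names 1 gene in both positions and was kept. Flp-In T-REx 293 cells come from the same kidney origin and carry a tetracycline repressor. They formed 4 groups: the untreated FLP and RPRD1B_FL, and their counterparts after 48 h of tetracycline, FLP_TET and RPRD1B_FL_TET. FL is not explained by the labels, and nothing in them says how many clones RPRD1B_FL stands for. Each group had 2 samples, and nothing says that they came from separate cultures, so the spread between them may be technical.

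Gene totals were 1817246 to 3531106 counts per sample, so a floor of 3 counts equals 0.850 to 1.65 CPM. The lines' labels were set against markers: VIM was at 76.2 CPM or more in every sample and NEFL, NEFM, KRT8, KRT18 and PAX2 had counts in all 24, while CD3E, COL1A2, MYH7, TYR and INS were at 0 in all 24, PTPRC was at 0 in 23, ALB in 20, and COL1A1 was at 1.15 to 14.2 CPM. The lowest values of PAX2 (0.558 CPM) and NEFM (0.7645 CPM) were below the floor. In CTRL, COL1A1 (7.63 CPM) was above NEFL (3.29), KRT8 (4.57) and PAX2 (1.17) and below NEFM (14.4), KRT18 (23.95) and VIM (139). NEFL was at 147 CPM in FLP. These markers are a weak check of the labels. The silenced gene had a lower mean than in CTRL in every group aimed at it: RPRD1A was at 157 ± 6.53 CPM (SD, n = 2) in CTRL and 19.2 to 25.7 CPM in the 4 groups named for it (75.5 to 92.0 in the 3 others), RPRD1B at 27.7 ± 0.202 and 7.55 to 10.3 CPM in the 3 groups named for it, and RPRD2 at 98.1 ± 2.29 and 31.9 to 59.9 CPM in the 4 groups named for it. RPRD1B was at 10.9 CPM in the library pair labelled RPRD1A_RPRD1A_KD, whose label does not name it. RPRD1B was at 78.5 ± 15.5 CPM in RPRD1B_FL_TET, 45.2 ± 0.330 in RPRD1B_FL, 30.7 ± 0.284 in FLP_TET and 35.8 ± 0.612 in FLP. The second RPRD1A_RPRD2_KD library stood apart: the rank correlation of its genes' deviations with transcript GC was 0.43 over 11648 genes, against -0.22 to 0.09 in the other 15 HEK293T libraries. In HEK293T, reads that the counting assigned to no annotated feature took 34.3% to 36.7% of reads in every replicate 1 and 27.4% to 29.8% in every replicate 2.

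Neighbouring finger coding sequences from 4 members are shown because the results below turn on these genes and on their base composition. Capitals mark the codons of the zinc-binding cysteines and histidines. Each stretch holds 2 fingers and 147 coding bases, in the GRCh38 build, 5′ to 3′ on the gene's strand, from GENCODE release 29.
ZNF146: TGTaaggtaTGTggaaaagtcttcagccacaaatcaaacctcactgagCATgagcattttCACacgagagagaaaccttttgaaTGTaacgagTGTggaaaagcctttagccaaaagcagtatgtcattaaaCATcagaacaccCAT
ZNF550: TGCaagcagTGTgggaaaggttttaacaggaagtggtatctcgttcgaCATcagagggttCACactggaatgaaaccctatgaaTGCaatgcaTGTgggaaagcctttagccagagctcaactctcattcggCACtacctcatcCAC
ZNF226: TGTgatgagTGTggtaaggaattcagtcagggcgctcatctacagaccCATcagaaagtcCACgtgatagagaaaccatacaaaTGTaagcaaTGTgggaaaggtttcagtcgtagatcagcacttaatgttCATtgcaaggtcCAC
ZNF768: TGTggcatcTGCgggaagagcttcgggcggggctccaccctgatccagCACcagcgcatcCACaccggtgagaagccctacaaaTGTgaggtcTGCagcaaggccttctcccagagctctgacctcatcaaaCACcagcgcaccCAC
They lie at chr19:36236492-36236638 on the plus strand (ZNF146), chr19:57547485-57547631 on the minus strand (ZNF550), chr19:44176187-44176333 on the plus strand (ZNF226) and chr16:30525207-30525353 on the minus strand (ZNF768). The stretches were taken with 1 common spacing of the marked codons, and pairs of them shared 51.0% to 61.2% of their bases. ZNF768 differed in composition: its stretch was 61.2% G or C, and 87.8% at the third codon position, where a change often leaves the amino acid as it is. The stretch was 40.1% G or C in ZNF146, 44.2% in ZNF226 and 47.6% in ZNF550, with 44.9%, 40.8% and 55.1% at the third codon position.

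Of the 181 members, 180 matched 1 gene in GENCODE 29, ZNF503 being the exception, and 179 had a coding transcript. A C2H2 finger pattern (C, 2 to 4 residues, C, 12 residues, H, 3 to 5 residues, H) occurred at least once in 175 of them, with a median of 9 and at most 33, in ZNF462. ZNF330, ZNF703, ZNF720 and ZNF839 had none. A KRAB box pattern, which can miss divergent boxes, was found in 78 members and not in 101. Chromosome 19 held 61 members, chromosome 16 held 20 and chromosome 7 held 13. The members spanned a wide range of composition, from 33.8% to 71.1% GC over the longest coding transcript, with a median of 45.6% against 48.1% for all genes of at least 10 CPM. Their longest annotated 3′ UTR had a median of 2028 bases against 1496 in those genes. Members with the KRAB pattern had a median GC of 42.9% and a 3′ UTR of 2273 bases, against 51.6% and 1720 bases without it. GC and UTR length moved together: of 3 GC classes of 60 members each, the lowest had a median UTR of 3067 bases and the highest 1100 bases.

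The members together took 0.905% to 1.09% of the gene counts of a HEK293T or Flp-In library, and 73 had a mean of 10 to 20 CPM, 63 of 20 to 50, 32 of 50 to 100, and 13 of 100 or more. ZNF703, a transcriptional cofactor with no C2H2 pattern here, had the largest mean, 2087 CPM, and alone took 20.6% to 31.9% of the members' counts in HEK293T libraries and 10.7% to 18.9% in Flp-In libraries. The next by mean CPM were ZNF428 (606), ZNF768 (339), ZNF593 (245), a factor of ribosome assembly, ZNF503 (211), ZNF711 (206), a gene of X-linked intellectual disability, ZNF207 (173), a spindle and kinetochore protein, ZNF316 (164), ZNF146 (157) and ZNF770 (145). A 3′ tag library reads 1 end per transcript, so these CPM were not divided by length. In 75 members the highest of the 12 group means was under 2 times the lowest, and in 29 it was over 4 times the lowest; ZNF544 and ZNF793 each had at least 1 group at 0 and no such ratio.

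The members with the steadiest group means were ZNF318, ZNF212, ZNF775, ZNF3 and ZNF697. ZNF318 was lowest in CTRL, at 61.9 and 53.0 CPM in the 2 libraries, and highest in RPRD1A_RPRD2_KD, at 83.0 and 62.3 CPM, a ratio of group means of 1.26. The least steady were ZNF793, ZNF544, ZNF331, ZNF462 and ZNF227, and all 5 were higher in every Flp-In library than in every HEK293T library. These 5 are described with the comparison of the lines.

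Tetracycline in the parent Flp-In line went with lower counts of GC-poor members and higher counts of GC-rich members, as it did over all genes. FLP_TET was compared with FLP by edgeR's quasi-likelihood test, with p-values adjusted by Benjamini-Hochberg over 11948 genes, and a gene was called at an adjusted p under 0.05. Over all genes 1.02% were called, 0.226% higher and 0.795% lower. Of the 181 members, 1 rose and 4 fell. At an unadjusted p under 0.05 there were 16 higher and 36 lower members, or 28.7%, against 22.7% of all genes tested (11.1% higher and 11.6% lower). The libraries of the groups did not overlap for 41 members in the higher and 65 in the lower direction (22.7% and 35.9%, against 29.7% and 28.3% of all genes). The median log2 fold change was -0.06 over the members and -0.01 over all genes tested.

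ZNF146, which is made almost wholly of fingers, was at 316 and 258 CPM in FLP and 143 and 163 CPM in FLP_TET. It fell by 0.91 on the log2 scale (SE 0.19, adjusted p = 0.0440). ZNF292, a large finger protein mutated in neurodevelopmental disorders, was at 44.3 and 27.3 CPM in FLP and 16.1 and 13.6 CPM in FLP_TET, and fell by 1.25 (SE 0.26, adjusted p = 0.0440). In both genes the 2 tetracycline libraries lay below both untreated ones, as in the next 2 genes.
ZNF550, a KRAB zinc finger gene, was at 31.7 and 33.1 CPM in FLP and 13.9 and 17.6 CPM in FLP_TET, and fell by 1.05 (SE 0.25, adjusted p = 0.04995). ZNF451, a SUMO ligase, was at 122 and 89.5 CPM in FLP and 54.1 and 59.7 CPM in FLP_TET, and fell by 0.89 (SE 0.21, adjusted p = 0.0468). ZNF768, a finger protein whose N-terminal part holds repeats like those of the RNA polymerase II tail, was the member that rose: it was at 122 and 133 CPM in FLP and 205 and 214 CPM in FLP_TET (log2 fold change 0.71, SE 0.17, adjusted p = 0.04995).
Just outside the threshold were ZNF24, a SCAN domain protein, with a log2 fold change of -0.73 (adjusted p = 0.0518), and, in the other direction, ZNF703 at 0.60 and ZNF777 at 0.64 (both adjusted p = 0.0588). ZNF358 and ZNF689 followed at 0.55 (adjusted p = 0.0862) and 0.49 (adjusted p = 0.0944).
These calls stood near the threshold, and the number called over all genes also moved with the fit. A floor of a mean count of 50 called 0 of 7058 genes. A fit of only these 2 groups called 631 of 11848 genes higher and 642 lower, and DESeq2 called 136 of 11948 higher and 114 lower. Leaving out 1 library leaves 1 in its group. No member stayed called without FLP replicate 1 or either FLP_TET library, and more were called without FLP replicate 2, as over all genes. A floor of a mean count of 50 left 0 members called. A fit of only these 2 groups gave 31 and DESeq2 gave 6, among them ZNF146, ZNF451 and ZNF768.

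**Figure D1:**
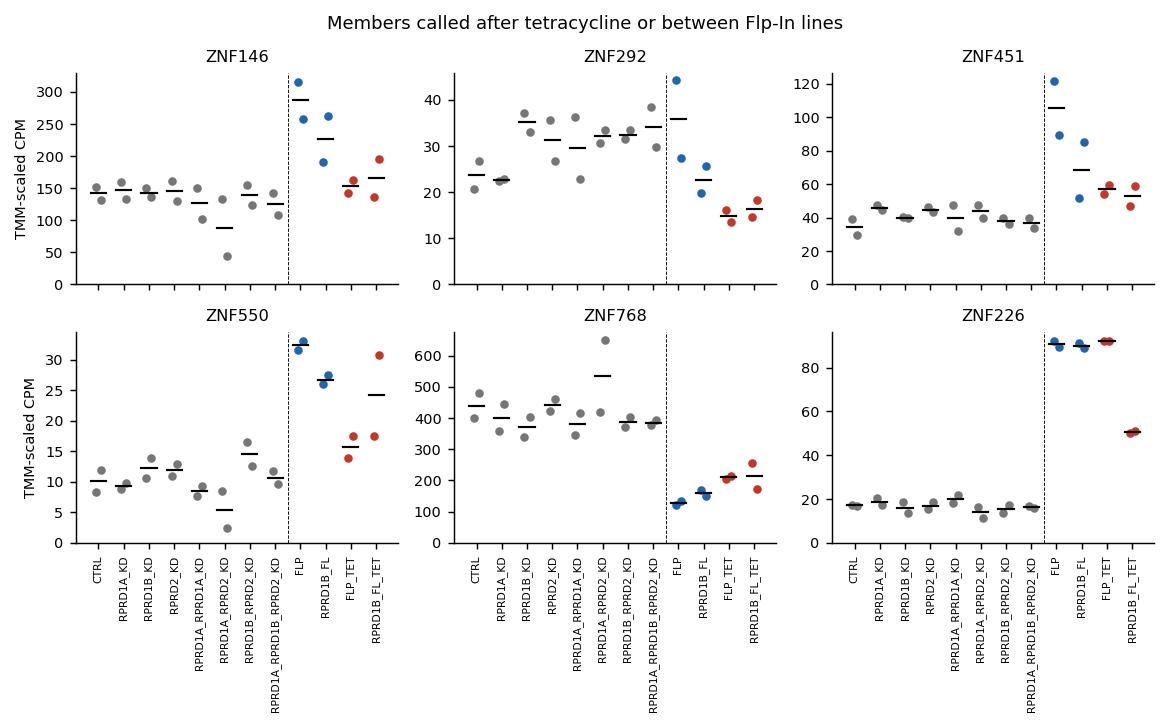
TMM-scaled CPM (y axis, linear from 0) of 6 members in all 12 groups (x axis; HEK293T left of the dashed line, Flp-In T-REx 293 right of it). Points are libraries, bars are means of 2; grey marks HEK293T, blue untreated Flp-In and red tetracycline. ZNF226 is at 50.1 and 50.9 CPM in RPRD1B_FL_TET and at 89.0 CPM or more in the other 6 Flp-In libraries.

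The sign of a member's difference between FLP_TET and FLP followed its GC. Across the 180 members with a value, Spearman's rho of log2 fold change with transcript GC was 0.71, and over 11761 genes it was 0.56; the points share the same 4 libraries, and no test was made. Of the 60 members of lowest GC (under 42.2%), 54 had a negative and 6 a positive log2 fold change, with a median of -0.44. Of the 60 of highest GC (over 52.5%), 11 were negative and 49 positive, with a median of 0.24, and the middle class had a median of -0.02. The 3 called members ZNF292 (36.5% GC), ZNF451 (37.7%) and ZNF146 (41.4%) were in the lowest class, ZNF550 (44.5%) was in the middle and ZNF768 (62.9%) in the highest. All genes with a GC value, cut into 10 sets of equal size by GC, went the same way. In the 3 sets of lowest GC 12.6% to 26.9% of genes were positive, with medians of -0.38 to -0.205. In the 3 sets of highest GC 73.7% to 85.1% were positive, with medians of 0.20 to 0.38. The split by GC was thus not particular to the members. Members with the KRAB pattern had a median of -0.25 and those without it 0.04, and chromosome 19 members a median of -0.15 against 0.30 for the 663 tested genes of that chromosome with no ZNF name. The median GC was 42.9% with the KRAB pattern and 51.6% without it, 43.5% in chromosome 19 members and 55.7% in that chromosome's annotated genes with no ZNF name. In bulk samples fewer cells of a kind and less RNA per cell cannot be told apart.

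With each library's GC trend over all genes removed as an offset, the medians of the lowest, middle and highest class were -0.15, 0.04 and 0.01. With this offset ZNF146 (log2 fold change -0.68, adjusted p = 0.0196), ZNF550 (-0.93, adjusted p = 0.0404) and ZNF292 (-0.87, adjusted p = 0.0499) were called, and ZNF451 (-0.54, adjusted p = 0.0741) and ZNF768 (0.38, adjusted p = 0.0951) were not. Over the alternatives (15 for ZNF146, ZNF451 and ZNF768, and 14 for ZNF550 and ZNF292, to which DESeq2 gave no adjusted p) the adjusted p of ZNF146 ran from 6.59e-06 to 0.629, that of ZNF550 from 0.000675 to 0.629, that of ZNF292 from 5.29e-05 to 0.629, that of ZNF451 from 6.2e-05 to 0.629 and that of ZNF768 from 0.000515 to 0.629. The low end of each range came from a block of crossed replicate numbers, chosen after seeing the data, and is no support. The high end came from leaving out FLP replicate 1. Without tetracycline the same GC-linked difference appeared between libraries of 1 group: in RPRD1B_FL the lowest class had a median deviation from the line's mean of log2(CPM + 1) of -0.14 in library 1 and 0.26 in library 2. The part of such library differences in the tetracycline values was not tested.

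**Figure D2:**
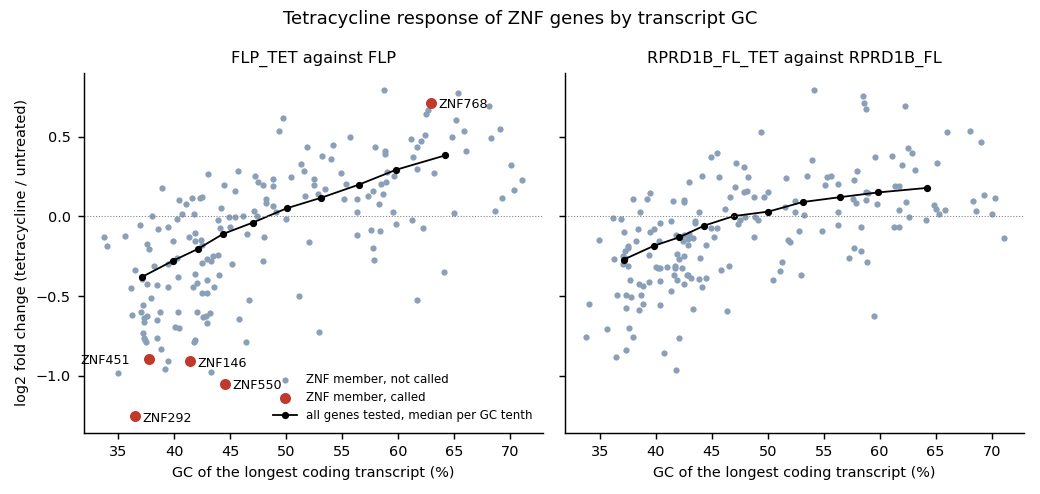
Log2 fold change after tetracycline (y axis) of the ZNF members against the GC of the longest coding transcript (x axis, percent), in the parent line (left) and the RPRD1B_FL line (right). Red points were called, and the black line joins medians of all genes tested in 10 GC classes of equal size: of the 60 members of lowest GC 54 (left) and 55 (right) lie below 0, and of the 60 of highest GC 49 and 45 lie above 0.

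In the RPRD1B_FL line no member was called after tetracycline, and no gene of the 11948 tested was (0%). By edgeR 21 members had an unadjusted p under 0.05, or 11.6% against 6.13% of all genes, and DESeq2 called 0 members. The median was -0.07 over the members and 0.00 over all genes. The order by GC was the same as in the parent line: the lowest class had a median of -0.32 (5 positive, 55 negative), the middle -0.06 and the highest 0.11 (45 positive, 15 negative), with rho 0.62 over 180 members and 0.45 over 11761 genes. All genes, cut into 10 sets of equal size by GC, had this order too. In the 3 sets of lowest GC 18.1% to 28.15% of genes were positive, and in the 3 of highest GC 70.8% to 74.5%. The tetracycline groups overlapped in the members' order by GC. The lowest class's median deviation was -0.48 and -0.01 in the RPRD1B_FL_TET libraries and -0.14 and 0.26 in the RPRD1B_FL libraries. Without RPRD1B_FL_TET replicate 1 the medians of the lowest and highest class were -0.06 and 0.00, without RPRD1B_FL replicate 2 they were -0.09 and 0.08, without RPRD1B_FL replicate 1 -0.53 and 0.14, and without RPRD1B_FL_TET replicate 2 they were -0.61 and 0.28. The last of these also called some members lower, and other genes in both directions, but it kept only 1 RPRD1B_FL_TET library. In the parent line all 4 libraries kept their sides: 0.45 and 0.13 in FLP, -0.11 and -0.14 in FLP_TET.

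**Figure D3:**
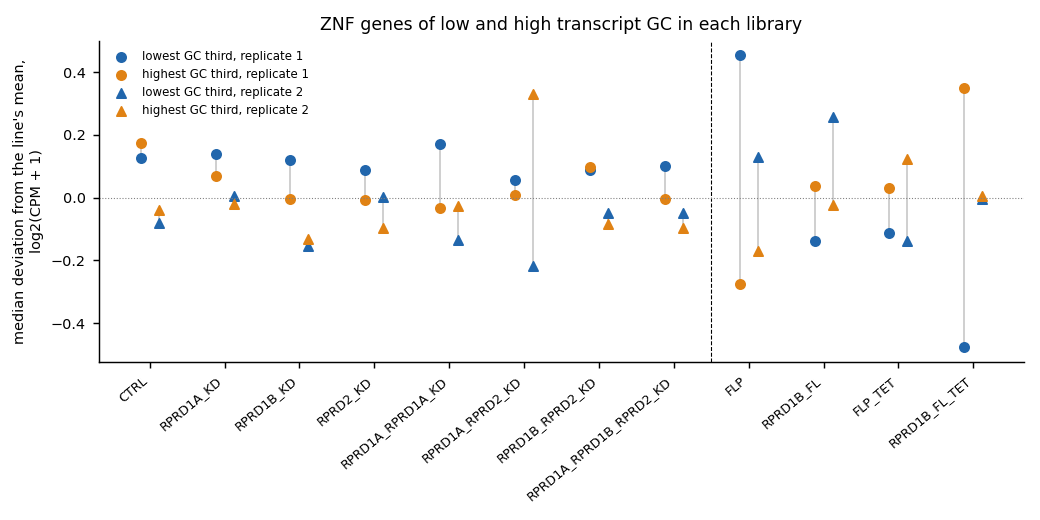
Median deviation from the cell line's mean (y axis, log2(CPM + 1)) of the 60 members of lowest GC (blue) and the 60 of highest GC (orange) in each library, by group (x axis); circles are replicate 1, triangles replicate 2, and grey lines join the 2 medians of a library. FLP replicate 1 (0.45 and -0.27) and RPRD1B_FL_TET replicate 1 (-0.48 and 0.35) are at opposite ends, and RPRD1A_RPRD2_KD replicate 2 (-0.22 and 0.33) is the widest in HEK293T.

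The member of smallest p in the RPRD1B_FL line was ZNF226, a KRAB zinc finger gene of the chromosome 19 cluster (chr19:44165073-44178381, plus strand). It was at 91.1 and 89.0 CPM in RPRD1B_FL and 50.1 and 50.9 CPM in RPRD1B_FL_TET (-0.86 on the log2 scale, SE 0.17, adjusted p = 0.149). ZNF276 was at 42.4 and 42.8 CPM in RPRD1B_FL and 77.2 and 68.8 CPM in RPRD1B_FL_TET (log2 fold change 0.76, SE 0.20, adjusted p = 0.641). The groups of both genes stood apart without overlap, as did 13.8% of members in the higher and 15.5% in the lower direction, against 17.3% and 15.2% of all genes tested. Among the next by p, lower values were seen for ZNF148, a GC-box binding factor (-0.70), ZNF267 (-0.88), ZNF12 (-0.96) and ZNF680 (-0.75), and higher ones for ZNF358 (0.46), ZNF764 (0.71), ZNF133 (0.79) and ZNF32 (0.53), all at an adjusted p of 0.788.

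ZNF226 was the member that differed between the tetracycline-treated lines. RPRD1B_FL_TET against FLP_TET gave 133 called genes of 11948 (1.11%; 0.226% higher and 0.887% lower), and of the members 0 were higher and 1 lower. At an unadjusted p under 0.05 there were 14 members (7.73%), against 10.3% of all genes. ZNF226 was at 92.1 and 92.1 CPM in FLP_TET against 50.1 and 50.9 CPM in RPRD1B_FL_TET, a difference of -0.88 on the log2 scale (SE 0.17, adjusted p = 0.00621). Over the alternatives its log2 fold change ran from -0.91 to -0.84 and its adjusted p from 0.00119 to 0.135; it passed in 13 of 15, and leaving out either FLP_TET library ended the call; leaving out RPRD1B_FL_TET replicate 1 gave 2 called members. It was at 92.4 and 89.2 CPM in FLP, so that the 6 other Flp-In libraries lay between 89.0 and 92.4 CPM, while HEK293T libraries lay between 11.5 and 21.8 CPM. Its neighbours in the cluster did not show this: the log2 fold change was 0.07 for ZNF234, -0.01 for ZNF227, -0.25 for ZNF224 and 0.02 for ZNF283, none called; these 4 were picked for their place after their values were seen. RPRD1A differed in the same comparison, being at 56.2 ± 2.63 CPM in FLP_TET and 26.3 ± 1.18 CPM in RPRD1B_FL_TET (SD, n = 2; log2 fold change -1.11, adjusted p = 0.00463, and 0.000168 to 0.128 over the alternatives; leaving out either FLP_TET library ended this call too).

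ZNF622, a factor of large ribosomal subunit maturation on the short arm of chromosome 5 (chr5:16451519-16465792, minus strand), was at 26.3 and 21.2 CPM in FLP_TET and 13.4 and 8.04 CPM in RPRD1B_FL_TET. The difference was -1.14 on the log2 scale (SE 0.29, adjusted p = 0.0548), with a range of adjusted p of 0.00586 to 0.564 over the alternatives, of which 9 of 14 called it; with the GC offset it was 0.0194. It was also low in RPRD1B_FL without tetracycline, at 12.4 and 8.79 CPM against 21.4 and 15.5 CPM in FLP. ZNF131, the other member on that arm, was at 17.97 and 26.4 CPM in RPRD1B_FL_TET and 28.1 and 24.9 CPM in FLP_TET, overlapping. On the higher side ZNF764 (0.77), ZNF276 (0.53), ZNF205 (0.55), ZNF142 (0.76) and ZNF550 (0.59) came first by p, at adjusted p of 0.227 to 0.427, and on the lower side ZNF362 (-0.65), ZNF554 (-0.56) and ZNF219 (-0.43) followed, at 0.242 to 0.399.

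Between the untreated lines, RPRD1B_FL against FLP, 141 genes were called (1.18%) and no member, with 23 members at an unadjusted p under 0.05 (12.7% against 13.3% of all genes) by edgeR and 0 called by DESeq2. Leaving out RPRD1B_FL replicate 2 called 2, ZNF451 and ZNF829. Lower values were seen for ZNF829 (-0.92, adjusted p = 0.126), ZNF24 (-0.57), ZNF33A (-0.65), ZNF451 (-0.61) and ZNF271P (-0.71), a pseudogene, and higher ones for ZNF784 (0.59), ZNF512B (0.48), ZNF592 (0.58), ZNF668 (0.68) and ZNF414 (0.72). GC moved with these too: rho was 0.53 over the members and 0.26 over all genes, with a median of -0.22 in the lowest class and 0.19 in the highest. The 4 members on chromosome 18 included ZNF24 and ZNF271P, whose annotated spans lie close together on opposite strands; ZNF24 was at 132 and 109 CPM in FLP and 68.4 and 93.2 CPM in RPRD1B_FL, ZNF271P at 42.0 and 37.7 CPM and at 17.6 and 30.9 CPM. ZNF397 was at 15.3 and 15.2 CPM in FLP and 10.98 and 12.2 CPM in RPRD1B_FL, and ZNF236 at 20.6 and 16.4 CPM and 12.4 and 16.05 CPM.

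The direct test of whether the tetracycline difference itself differed between the 2 lines called no gene of 11948 (0%) by edgeR and no member by DESeq2. By edgeR 8 members had an unadjusted p under 0.05 (4.42% against 3.99% of all genes). ZNF226 had the smallest p, 0.000891, with a difference of -0.87 on the log2 scale (SE 0.23, adjusted p = 0.991). The other members with the smallest p were ZNF76 (-0.50), ZNF668 (-0.75), ZNF592 (-0.58) and ZNF148 (-0.58) in the same direction, and ZNF271P (1.07), ZNF550 (0.87), ZNF24 (0.63), ZNF791 (0.72) and ZNF518A (0.83) in the other, all at an adjusted p of 0.991.

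No member passed the test after silencing of the RPRD genes when all 16 HEK293T libraries were fitted by group. That fit ignores the replicate number. A fit with a replicate block and without the second RPRD1A_RPRD2_KD library called members lower in RPRD1B_KD, RPRD2_KD, RPRD1A_RPRD1A_KD and RPRD1A_RPRD1B_RPRD2_KD, as given in the closing sections. The share of all genes called in that fit is not given here, so those calls are a description only and no result about the members. In the 7 silenced groups 177 members were tested, and 0 were called in each by edgeR and by DESeq2 in the fit by group. Of all 11834 genes only 1 or 2 were called by edgeR in each group (0.00845% to 0.0169%). ZNF331, ZNF462, ZNF544 and ZNF793 were not tested there, as their counts in HEK293T did not pass the low-count filter. In RPRD1A_RPRD2_KD 1 gene was called and in RPRD1A_RPRD1B_RPRD2_KD 2, fewer than the genes silenced. The test thus missed a silenced RPRD gene in both, and the absence of member calls is weak evidence. At an unadjusted p under 0.05 there were 6 members in RPRD1A_KD (3.39% against 2.64% of all genes), 5 in RPRD1B_KD (2.82% against 3.46%), 10 in RPRD2_KD (5.65% against 3.84%), 3 in RPRD1A_RPRD1A_KD (1.69% against 3.99%), 9 in RPRD1A_RPRD2_KD (5.08% against 7.07%), 6 in RPRD1B_RPRD2_KD (3.39% against 2.51%) and 5 in RPRD1A_RPRD1B_RPRD2_KD (2.82% against 3.99%). The shares lay on both sides of the background. Member medians ran from -0.08 in RPRD1B_KD to 0.04 in RPRD1A_KD, and the middle 50% of the members lay within -0.25 and 0.20 in all 7. These groups share the same CTRL pair, so their values were not compared with each other.

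**Figure D4:**
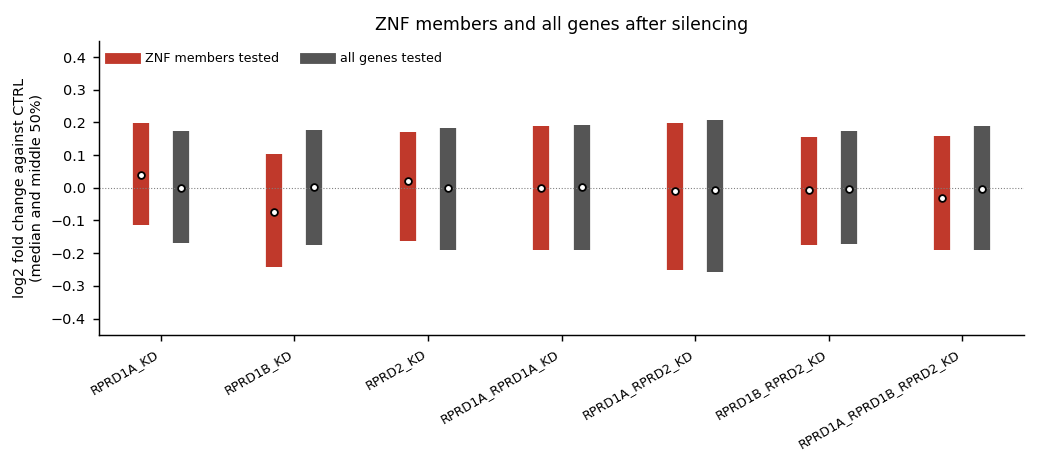
Log2 fold change against CTRL (y axis) in the 7 silenced groups (x axis); bars span the middle 50% of the 177 ZNF members tested (red) and of the 11834 genes tested (grey), and open circles are medians. Member medians lie between -0.08 and 0.04.

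The members of smallest p in each silenced group are given as values, since none passed the test. ZNF787, a GC-rich member, was at 97.6 and 72.1 CPM in CTRL, 56.5 and 40.2 CPM in RPRD1B_KD, 50.4 and 50.8 CPM in RPRD2_KD and 55.2 and 57.6 CPM in RPRD1A_RPRD1A_KD. Against CTRL this was -0.80, -0.73 and -0.57 on the log2 scale, each at an adjusted p of 1.00. Over 16 alternatives in each group the adjusted p ran from 0.00138, 0.00303 and 0.0489 up to 1, and 1 alternative in each called it. ZNF414 was at 36.3 and 37.4 CPM in CTRL and at 23.1 to 28.02 CPM in the RPRD1A_KD, RPRD1B_RPRD2_KD and RPRD1A_RPRD1B_RPRD2_KD libraries, where its log2 fold change was -0.49, -0.45 and -0.59. ZNF134 was at 12.3 and 15.1 CPM in CTRL, 7.96 and 7.09 CPM in RPRD1A_KD and 8.20 and 6.71 CPM in RPRD1A_RPRD1B_RPRD2_KD. ZNF296 (-1.09 in RPRD1B_KD, -0.81 in RPRD1A_RPRD1A_KD), ZNF358 (-0.58 in RPRD2_KD) and ZNF12 (-1.03 in RPRD1B_RPRD2_KD) complete the lower side.

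On the higher side ZNF697 was at 31.8 and 32.1 CPM in CTRL, 41.9 and 49.0 CPM in RPRD1B_KD (0.51) and 47.0 and 44.1 CPM in RPRD2_KD (0.52). ZNF74 was at 18.4 and 17.4 CPM in CTRL, and its log2 fold change was 0.55 in RPRD2_KD, 0.48 in RPRD1A_RPRD1A_KD and 0.61 in RPRD1B_RPRD2_KD. ZNF292, which fell with tetracycline in the parent line, was at 20.6 and 26.7 CPM in CTRL and at 37.2 and 33.1 CPM in RPRD1B_KD (0.56) and 38.4 and 29.8 CPM in RPRD1A_RPRD1B_RPRD2_KD (0.52), neither called. ZNF382 (1.35) and ZNF554 (0.96) in RPRD1A_KD, ZNF605 (1.17) in RPRD1A_RPRD1A_KD, ZNF267 (0.89) in RPRD1B_RPRD2_KD, ZNF430 (0.41) in RPRD1A_RPRD1B_RPRD2_KD and ZNF512B (0.50) and ZNF133 (0.67) in RPRD1A_RPRD2_KD were the others.

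In RPRD1A_RPRD2_KD the 2 libraries differed from each other. ZNF367 was at 28.01 and 8.47 CPM there and 33.5 and 52.5 CPM in CTRL (log2 fold change -1.35, SE 0.38, adjusted p = 0.619), and ZNF829 at 1.59 and 0.339 CPM against 4.46 and 4.01 CPM (-2.28, adjusted p = 0.646). ZNF146 was at 133 and 44.4 CPM and ZNF768 at 420 and 650 CPM, so the GC-poor and GC-rich members moved apart in the second library. With the first library left out, only the library of strong GC trend stood for the group, and some members were called lower. With the second left out, none was. The share of all genes called in these fits is not given here, so this is no result about the members. In this group rho with GC was 0.24 over 176 members and 0.22 over 11648 genes, and in the other 6 it was -0.20 to -0.11 over the members and -0.15 to -0.09 over all genes.

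The 2 control groups, CTRL of HEK293T and FLP, differed in far more genes than any treated pair. The line and the siRNA transfection cannot be told apart in this comparison. In a fit of all 24 libraries 4279 of 12803 genes were called (33.4%; 16.1% higher and 17.4% lower in CTRL), and of the members 27 were higher (14.9%) and 42 lower (23.2%). The threshold bears on this count, because a member below 10 CPM in 1 line had to be above it in the other. Of the 150 members at 10 CPM or more in both lines, 21 were higher and 25 lower in CTRL, with a median of 0.00; of the 19 below it in HEK293T, 17 were lower, and of the 12 below it in Flp-In, 6 were higher.

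The lower members lay mostly on chromosome 19. Of its 61 members 4 were higher and 29 lower in CTRL (47.5%), with a median of -0.69, and of the 119 with a position on another chromosome 22 were higher and 13 lower, with a median of 0.17. Of the 717 tested genes of that chromosome without a ZNF name 127 were higher (17.7%) and 175 lower (24.4%, against 17.4% of all genes), with a median of 0.00. Restricted to the 44 chromosome 19 members at 10 CPM or more in both lines, 2 were higher and 16 lower, with a median of -0.36. Under RLE scaling the median was -0.72, and under DESeq2 -0.71. By KRAB pattern, the 39 chromosome 19 members with it had a median of -1.31 (1 higher, 23 lower) and the 22 without it -0.24 (3 higher, 6 lower), while the 39 with it elsewhere had a median of 0.25 (10 higher, 3 lower). All 16 HEK293T libraries lay below all 8 Flp-In libraries for 26 of the 61 chromosome 19 members (42.6%), for 22.3% of the tested genes of that chromosome with no ZNF name and for 11.8% of all genes. Over all members 37 of 181 lay below (20.4%) and 16 above (8.84%, against 8.7% of all genes). Of the 61 chromosome 19 members, 14 were under 10 CPM in HEK293T and so became members through Flp-In, and 13 of these were called lower. The split by KRAB pattern and the shares without overlap keep such members, while the background genes had no such threshold. These values are therefore a description only.

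**Figure D5:**
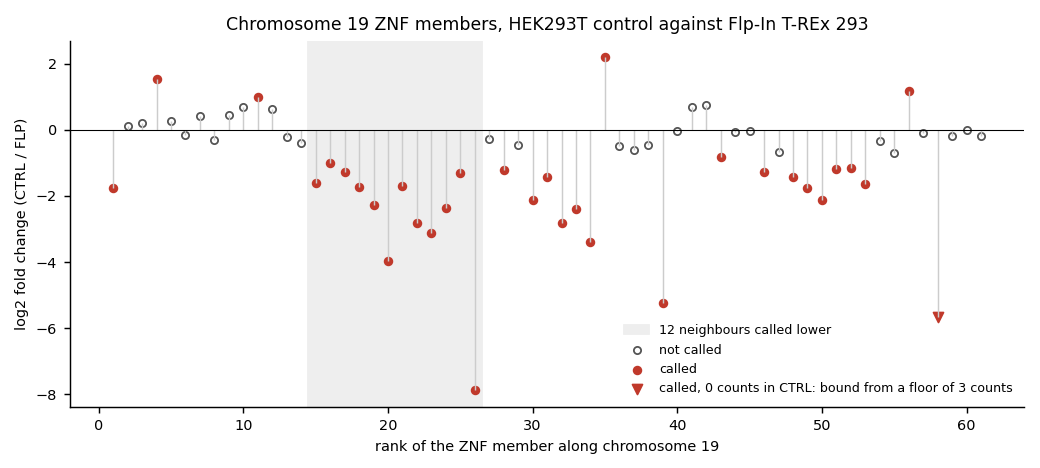
Log2 fold change of CTRL over FLP (y axis) for the 61 ZNF members of chromosome 19 in their order along it (x axis, rank). Filled points were called; the triangle is ZNF544, with 0 counts in CTRL, drawn at the bound from a floor of 3 counts; the grey band holds the 12 consecutive members, ZNF302 to ZNF793, that were all lower in CTRL.

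The longest run of neighbouring members lower in CTRL was 12 genes, from ZNF302 to ZNF793 (chr19:34677639-37548762), with fitted log2 fold changes of -7.87 to -1.01 and a median of -2.01. It holds ZNF146, ZNF382, ZNF850 and ZNF829. The run was not restricted to members at 10 CPM or more in both lines, so it too is a description. The 36 tested genes without a ZNF name in that interval had a median of -1.07, and 24 were lower and 1 higher. Beside them, 12 ZNF names under the threshold were tested there. Around ZNF226, which lies outside this run, the members ZNF283 (-2.12), ZNF224 (-1.44), ZNF234 (-2.80), ZNF226 (-2.41) and ZNF227 (-3.39) were all lower in CTRL; the call of ZNF224 (adjusted p = 0.0111) ended without CTRL replicate 2 (0.12) or FLP replicate 1 (0.0721).

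Some members were near 0 in HEK293T. ZNF544, with a KRAB box, had 0 counts in CTRL and 231 in FLP, at 39.3 and 36.8 CPM, which is at least 50.1-fold higher in FLP against a floor of 3 counts over the group; the exact 95% lower limit of the ratio of these counts is 40.45. ZNF793 had 1 count in CTRL and 411 in FLP, a ratio of 268 (exact 95% counting interval 47.8 to 10595). ZNF462, a neurodevelopmental gene on chromosome 9, had 2 counts in CTRL and 255 in FLP, a ratio of 83.0 (22.8 to 689). The intervals cover counting error only. ZNF331, an imprinted KRAB gene, was at 0 and 2.23 CPM in CTRL and at 49.2 and 46.9 CPM in FLP. All 16 HEK293T libraries had at most 0.840 CPM of ZNF793 and 2.23 CPM of ZNF331, in the silenced groups as in CTRL, and all 8 Flp-In libraries had 25.6 CPM or more of ZNF793 and 45.4 CPM or more of ZNF331. ZNF227 was at 16.7 and 23.1 CPM in CTRL and 221 and 202 CPM in FLP, and ZNF711 on chromosome X at 88.1 and 93.0 CPM against 592 and 504 CPM (log2 fold change -2.60). ZNF382, ZNF605, ZNF829, ZNF850 and ZNF234 were lower by -3.96, -3.28, -3.12, -2.83 and -2.80.

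Members higher in CTRL came from several chromosomes. ZNF692 was at 59.1 and 45.9 CPM in CTRL and 11.4 and 8.06 CPM in FLP (log2 fold change 2.44, SE 0.32, adjusted p = 2.08e-06). ZNF589, a KRAB gene on chromosome 3, was at 45.2 and 45.9 CPM against 9.92 and 7.77 CPM (2.37, SE 0.24, adjusted p = 2.87e-08). ZNF768, which rose with tetracycline in FLP cells, was at 401 and 479 CPM against 122 and 133 CPM (1.78). ZNF296 (2.19), ZNF22 (1.76), ZNF414 (1.55), ZNF670 (1.55), ZNF271P (1.33), ZNF276 (1.28) and ZNF703 (1.25) completed the 10 of largest difference.

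Related zinc finger names at the same level were few, and are given beside the 16.1% of all genes higher and 17.4% lower in CTRL: of 20 ZBTB genes 7 were higher and 2 lower in CTRL, of 11 ZSCAN and ZKSCAN genes 3 and 1, and of 6 ZFP genes 1 and 3.

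The co-repressors that KRAB proteins work through were measured beside them from a list of 20 genes. TRIM28 was at 199 to 434 CPM and SETDB1 at 42.4 to 73.6 CPM over all 24 libraries. Of the 19 tested in each line, none was called in any silenced group or after tetracycline in either line. CBX5, a heterochromatin protein, was lower in RPRD1B_FL than in FLP (-0.70, adjusted p = 0.0296) and lower in RPRD1B_FL_TET than in FLP_TET (-0.79, adjusted p = 0.0153). The first call ended without FLP replicate 1 or either RPRD1B_FL library (adjusted p = 0.153 to 0.528), and the second without either FLP_TET library or RPRD1B_FL_TET replicate 1 (0.0601 to 0.355). Between CTRL and FLP, where 16.1% of all genes were higher and 17.4% lower, 6 were higher and 5 lower of 20, among them the histone deacetylase HDAC1 at 1.70 and CBX5 at -1.21. Neither TRIM28 nor SETDB1 was among the called.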

How the data were processed

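Per the labels' protocols, RNA of 24 samples was extracted with TRIzol and made into QuantSeq 3′ REV libraries, which read transcripts at their 3′ ends. The authors deposited whole-number counts per gene name, and the submitters' processing notes name FastQC, STAR, HTSeq, DESeq2 and GRCh38. The annotation, strand setting and filters are not given in the sources used here, so a gene and an antisense or overlapping partner may not be separable, and reads without a unique position (9.56% to 14.6%) were not counted to genes. The 5 closing rows were left out of totals. edgeR 4.0.16 in R 4.3.3 was run per cell line, with filterByExpr (minimum count 10, total 15), TMM and glmQLFTest, adjusted by Benjamini-Hochberg over all genes tested; CTRL against FLP used all 24 libraries. CPM by library are TMM-scaled; membership used unscaled CPM. A GC or UTR length offset is a lowess curve (span 0.3) of each library's log2 deviation. Alternatives were RLE, DESeq2 1.42.0, other filters, smaller fits, a replicate block, offsets and omitted libraries. GENCODE 29 gave positions and transcripts. Named genes are the 10 of highest mean CPM, 5 of smallest and 5 of largest spread of group means, up to 10 called per direction, the 5 of smallest p per direction in Flp-In comparisons with fewer than 5 called, 2 per direction in each silenced group, members on chromosome 18 and the short arm of 5, and co-repressors. Members and lists were chosen with earlier results of these data known.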

Additional observations from a re-analysis of the deposited data

How the results depend on the processing

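Across the alternatives, the 108 pairs of a named gene and a comparison gave 1600 values: 0 changed direction, 56 lost the call, 48 gained it and 1496 kept their side of the threshold. Most pairs were chosen by their call or small p in the main fit, and the alternatives reuse the same libraries. A kept direction was thus likely from the start and is no support. Most of the lost calls were in FLP_TET against FLP. In FLP_TET against FLP the 5 calls became 17 with no filter on low counts, 0 with a mean count of 50 or more, 3 with a GC offset, 3 with GC and UTR length offsets, 31 with only the compared groups, and 0 to 19 leaving out 1 library. Over all genes the calls moved too: 366 higher and 396 lower of 22723 with no filter, 0 of 7058 with a mean count of 50 or more, and 631 higher and 642 lower of 11848 with only the compared groups. The members' median log2 fold change in FLP_TET against FLP was 0.0092 with the UTR length offset, -0.12 over ZNF names of 5 CPM or more, 0.0056 over those of 20 CPM or more, and -0.14 to -0.014 leaving out 1 library. In RPRD1B_FL_TET against RPRD1B_FL there was 1 call with no filter, where 2 genes were higher and 4 lower of all 22723. Leaving out 1 library moved the calls and gave a median of -0.16 to -0.013. RPRD1B_FL against FLP gave 1 with no filter and 0 to 2. RPRD1B_FL_TET against FLP_TET gave 2 with no filter, with a GC, a UTR length or both offsets, and with only the compared groups, and 0 to 2 leaving out 1 library. RPRD1A_RPRD2_KD gave 1 with no filter, and some when its first library was left out, a fit with 1 library in the group. CTRL against FLP gave 42 with a mean count of 50 or more, against 69, but that filter tested fewer members, 31 of the 61 on chromosome 19. Over all genes it called 1230 higher and 1351 lower of 6891, against 2057 and 2222 of 12803. Leaving out 1 library lowered the calls among the members and over all genes. The cause of these moves was not tested.

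Same-numbered replicates share only a number by the labels. Their deviations correlated at a mean of 0.325 over 28 pairs of groups in HEK293T (-0.0124 to 0.513, over 0.1 in 26) and -0.0161 over 6 pairs in Flp-In (-0.345 to 0.453), across 8888 genes. A replicate block gave 0 calls in FLP_TET against FLP, 3 together with the GC offset, and 2 in RPRD1B_FL_TET against FLP_TET, with or without the GC offset. With the block kept and the second RPRD1A_RPRD2_KD library omitted there were 2 calls in RPRD1B_KD, 6 in RPRD2_KD, 1 in RPRD1A_RPRD1A_KD and 2 in RPRD1A_RPRD1B_RPRD2_KD, all lower, with ZNF787 called in the first 3 of these. Crossed numbers, chosen after seeing the data, gave 34 calls in FLP_TET against FLP, 15 in RPRD1B_FL against FLP and 2 in RPRD1B_FL_TET against FLP_TET. The shares of all genes called in the blocked and crossed fits are not given here. These member counts are therefore a description only and cannot be set against a background.

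With 2 samples a group and a floor of 0.850 to 1.65 CPM per library, small differences of members near 10 CPM were not detectable at this depth. Larger differences were missed as well, since not every silenced RPRD gene was called in RPRD1A_RPRD2_KD or RPRD1A_RPRD1B_RPRD2_KD.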

Other observations

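ZNF names under the level threshold were also tested. In FLP_TET against FLP 1 of 177 was called: ZNF248, just outside the threshold, was at 17.2 and 18.1 CPM in FLP and 8.34 and 4.31 CPM in FLP_TET (log2 fold change -1.47, SE 0.34, adjusted p = 0.0468 by edgeR). Leaving out FLP replicate 1 or either FLP_TET library ended this call (adjusted p = 0.336 to 0.629), as did the GC offset (0.0581). In CTRL against FLP 190 were tested, and 5 were higher and 72 lower in CTRL, where 16.1% of all genes were higher and 17.4% lower. This count is a description only: 130 of these names passed the low-count filter in HEK293T and 177 in Flp-In, so some entered through the line in which they are high.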
